A study of Mus musculus with 12 samples.

Results

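Meiotic recombination starts from programmed DNA double-strand breaks, and the places where breaks recur are called hotspots. This account describes the hotspots that were listed in Ankrd31 knockout testis but not in wild type testis, and that lay inside the body of a protein-coding gene. A hotspot of the knockout list was a member if it was on chromosomes 1 to 19 and overlapped no wild type hotspot by even 1 bp. Its centre also had to be over 1 kb from the ends of every RefSeq gene, coding or not, and inside a protein-coding gene. The rule found 2006 hotspots among the 22034 of the knockout list. There were 9688 autosomal knockout-only hotspots in all, of which 5195 lay at gene ends and 2487 between genes.

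The hotspots came from DMC1 single-stranded DNA sequencing (SSDS) of whole testis from adult males. The recombinase DMC1 acts only in meiosis and covers the single strands left when the ends of a break are cut back. The wild type animals were C57BL/6JCrl (B6) mice and the knockout animals carried the Ankrd31 tm1Atot allele, with 2 samples labelled for each genotype. No source used here gives the background strain of the knockout. The deposited data are 1 hotspot list per genotype, so there is no spread between animals, no test between genotypes and no p-value in what follows. The intervals given are exact 95% intervals that cover counting error only. In whole testis, fewer meiotic cells and fewer breaks per cell cannot be told apart.

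In mice most hotspots are placed by PRDM9, a zinc finger methyltransferase that binds its DNA motif and marks nearby nucleosomes, mostly away from promoters. When PRDM9 is lost, breaks are known to move to other open chromatin such as promoters. ANKRD31 is a partner of the break-forming machinery, and the comparison of the lists shows where breaks lay without it. A gene can have several promoters. Those downstream of its outermost start lie inside the annotated gene, so a rule on gene ends does not remove them.

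Of the members with start data, 21.7% sat on an annotated transcript start. Examples are printed here, because the letters around these starts differ from those around unused ones. They are the 250 bases before the internal start under the 5 strongest members that had a start within 250 bp of the hotspot centre. The sequences are RefSeq promoters on GRCm38.p6, 5′ to 3′, and capitals mark CpG dinucleotides. They lie at chr5:29195743-29195992 (plus strand, Rnf32), chr3:152396434-152396683 (plus, Zzz3), chr19:53142506-53142755 (plus, Add3), chr1:60180349-60180598 (plus, Nbeal1) and chr4:111414756-111415005 (plus, Bend5).
Rnf32: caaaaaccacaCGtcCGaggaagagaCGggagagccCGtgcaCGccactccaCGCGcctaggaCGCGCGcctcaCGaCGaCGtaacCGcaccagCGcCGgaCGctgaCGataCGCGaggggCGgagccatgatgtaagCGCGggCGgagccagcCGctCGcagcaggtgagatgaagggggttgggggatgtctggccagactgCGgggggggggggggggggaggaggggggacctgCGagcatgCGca
Zzz3: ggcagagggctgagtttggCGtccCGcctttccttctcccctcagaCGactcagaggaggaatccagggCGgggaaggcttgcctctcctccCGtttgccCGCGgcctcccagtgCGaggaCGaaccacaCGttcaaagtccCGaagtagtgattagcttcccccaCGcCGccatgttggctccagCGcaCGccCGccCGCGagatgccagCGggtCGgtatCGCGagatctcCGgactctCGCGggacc
Add3: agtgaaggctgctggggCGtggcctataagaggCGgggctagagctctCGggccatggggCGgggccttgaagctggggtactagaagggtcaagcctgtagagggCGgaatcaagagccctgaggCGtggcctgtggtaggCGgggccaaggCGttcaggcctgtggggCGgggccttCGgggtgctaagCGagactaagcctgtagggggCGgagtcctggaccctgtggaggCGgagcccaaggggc
Nbeal1: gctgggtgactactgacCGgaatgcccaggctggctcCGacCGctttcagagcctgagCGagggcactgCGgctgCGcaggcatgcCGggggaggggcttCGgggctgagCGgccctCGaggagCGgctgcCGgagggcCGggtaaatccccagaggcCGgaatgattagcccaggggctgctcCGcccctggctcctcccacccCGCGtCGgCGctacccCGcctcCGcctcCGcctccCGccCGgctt
Bend5: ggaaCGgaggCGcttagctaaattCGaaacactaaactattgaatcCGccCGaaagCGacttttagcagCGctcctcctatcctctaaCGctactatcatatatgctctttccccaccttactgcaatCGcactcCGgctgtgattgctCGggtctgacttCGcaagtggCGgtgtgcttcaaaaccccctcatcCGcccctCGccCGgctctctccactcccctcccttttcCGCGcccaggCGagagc
The same length before another start of Add3, at chr19:53143747-53143996 (plus strand), is shown for contrast, since no knockout hotspot was centred within 500 bp of it. This start lies just beyond the Add3 member at chr19:53141784-53143398. Only 1 of 1987 gaps between listed members was under 5 kb, so a second listed hotspot had little room there. The pair thus shows a difference in letters only, and cannot show why this start had no hotspot.
Add3: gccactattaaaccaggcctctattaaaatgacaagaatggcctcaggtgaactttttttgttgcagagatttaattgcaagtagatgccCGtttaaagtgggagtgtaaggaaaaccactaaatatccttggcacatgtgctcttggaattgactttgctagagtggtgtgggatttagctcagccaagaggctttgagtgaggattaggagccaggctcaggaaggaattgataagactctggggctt
The starts under hotspots held 29 (Rnf32), 25 (Zzz3), 13 (Add3), 24 (Nbeal1) and 19 (Bend5) CpGs in 250 bases, with a G and C content of 56% to 73.2%. The second Add3 start held 1 CpG, with 43.6% G and C. All 5 held the GC box GGGCGG on either strand, and the second Add3 start did not.

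The promoter table gives starts on 18 of the 19 autosomes (none on chromosome 18), and the values on starts cover those. A start here is one in that table, which had an entry for 1254 of 1607 host genes (78%). Members counted as away from starts thus include some whose own host has no listed start. One in Stau2, for example, was 1335 bp from a gene end but 1626905 bp from the nearest listed start. Of 1905 members on these chromosomes, 414 (21.7%, 19.9 to 23.7) were centred within 500 bp of an annotated start. The shared hotspots inside gene bodies were chosen by the same rule on genes, but overlapped a wild type hotspot, and there were 4980 of them. Of the 4809 on these chromosomes, 18 (0.374%, 0.222 to 0.591) were at a start. Ground within 500 bp of a start made up 0.382% of the gene-body sequence open to the rule (3.4 of 890.7 Mb). On this ground the members reached 122 hotspots per Mb (110 to 134), against 1.68 (1.60 to 1.77) in the rest of the gene bodies. Shared hotspots had 5.29 per Mb (3.14 to 8.36) at starts and 5.40 (5.25 to 5.55) elsewhere, so their density did not differ beyond counting error.

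**Figure D1:**
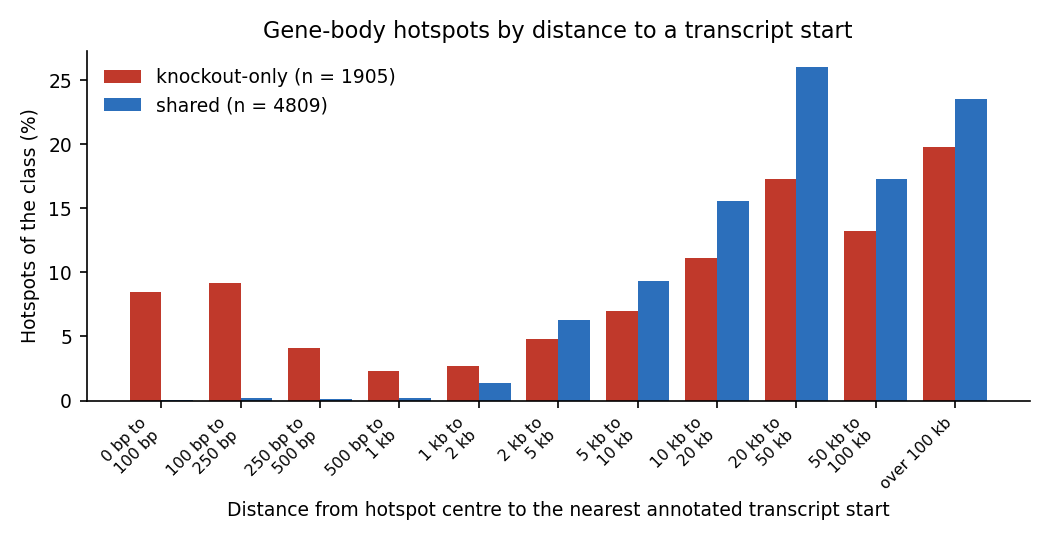
Percent of gene-body hotspots (y axis) by distance from the hotspot centre to the nearest annotated transcript start (x axis), for 1905 knockout-only and 4809 shared hotspots. The knockout-only bars have a separate group within 500 bp of a start, where shared hotspots are nearly missing, and most hotspots of both classes lie over 5 kb away.

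The plot of distances shows 2 groups of members. The first lay close to a start, with 161 within 100 bp, 175 between 100 and 250 bp and 78 between 250 and 500 bp. Between 500 bp and 1 kb there were 44, and the others lay over 1 kb away. The 414 members at a start sat on 414 distinct starts in 410 genes. Each was a start of the host gene, which the rule largely fixes, since it removes centres near the ends of every gene. Of these starts, 394 were themselves over 1 kb from every gene end. The centres lay a median of 58 bp downstream of the start (quartiles -68.8 and 171), and 257 (62.1%) were downstream.

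Seen from the starts, 451 of 3627 internal starts (12.4%) had a member within 500 bp, and 16 (0.441%) had a shared hotspot. An internal start here is one that lies over 1 kb from every gene end and inside a coding gene. The CpG ratio, the number of CpGs over the number that the C and G content would give, was computed over 300 bases around each start. Starts under members had a median CpG ratio of 0.812, and internal starts with no knockout hotspot within 500 bp had 0.31. A CpG ratio of at least 0.6, a value often used for CpG islands, was found in 82.0% (78.2 to 85.5) of the former and 24.5% (23.0 to 26.1) of the latter.

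Use was higher with each step of the CpG ratio. Below 0.2, 2 of 937 internal starts (0.213%) had a member, and from 0.2 to 0.4 it was 12 of 997 (1.20%). It was 67 of 536 (12.5%) from 0.4 to 0.6, 131 of 521 (25.1%) from 0.6 to 0.8 and 239 of 636 (37.6%, 33.8 to 41.5) from 0.8 on. Shared hotspots showed no such rise, with 3, 7, 5, 0 and 1 starts in the same classes. Outer starts of coding genes, those near a gene end, rose in the same steps but stood higher in every class, reaching 47.1% (45.7 to 48.5). The intervals of internal and outer starts overlapped only in the lowest class.

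**Figure D2:**
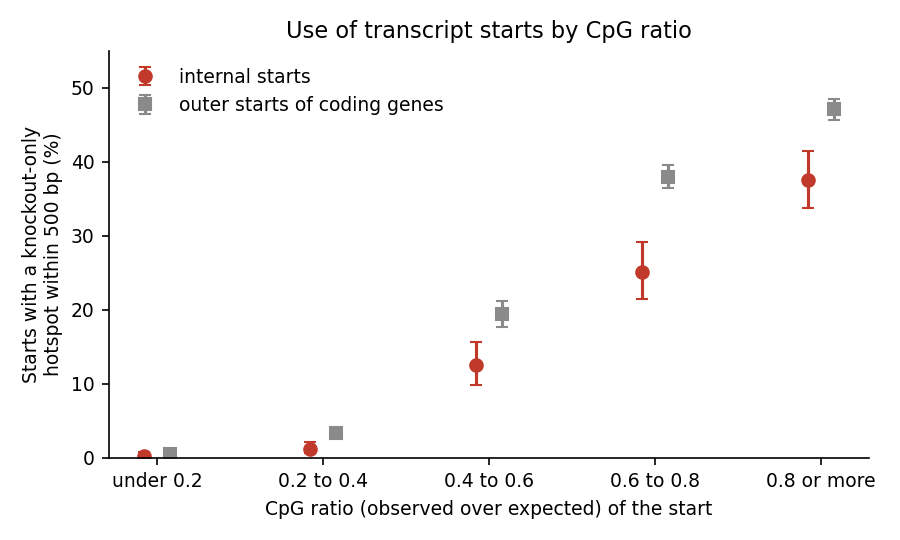
Percent of transcript starts with a knockout-only hotspot centred within 500 bp (y axis) by CpG ratio of the 300 bases around the start (x axis), with exact 95% intervals. Circles are internal starts and squares are outer starts of coding genes. Both rise from under 1% to 37.6% and 47.1%.

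Motifs were counted in the same 300 bases on both strands. The GC box GGGCGG, bound by Sp1-like factors, was present at 72.5% (68.1 to 76.6) of internal starts with a member, at 29.6% (28.0 to 31.2) of those with no knockout hotspot and at 36% of all autosomal starts in the table. The ETS motif CCGGAAG was at 12% (9.12 to 15.3), 5.57% (4.79 to 6.43) and 9%. The TATA box TATAAA went the other way, with 5.54% (3.62 to 8.07), 12.8% (11.6 to 14) and 13.6%. CCAAT, the letters of the NF-Y site, did not separate the groups (33.7%, 34.7% and 37.3%). The cyclic AMP element TGACGTCA was at 2.22% (1.07 to 4.04) against 1.27% (0.911 to 1.73), beside 1.83% of all starts. The NRF1 motif was at 1.55% (0.626 to 3.17) against 0.382% (0.197 to 0.666), beside 0.968% of all starts, and for these 2 motifs the intervals overlapped. The GC box, ETS, cyclic AMP and NRF1 motifs hold a CpG themselves, so their counts are not separate from the CpG ratio.

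The strongest member at a start lay inside Rnf32, a RING finger gene, at chr5:29195196-29196728. It had 567 reads and a strength of 562, and its centre was 31 bp from a start, 3217 bp inside the gene. Strength is the read count of a hotspot minus its estimated background. The hotspot in Zzz3, a subunit gene of the ATAC histone acetyltransferase complex, had a strength of 510. It stretched over the outer end of the gene although its centre lay 1024 bp inside. Next came Add3, which encodes the cytoskeletal protein adducin (441), Tef, a circadian leucine zipper transcription factor gene (407), Nbeal1 (405) and Pogz, a chromatin regulator gene (341). Bend5, which lies within the long gene Agbl4, had 332 with its centre 1 bp from the start. Others were Usp34, a deubiquitinase gene (323), Pcgf5, a Polycomb gene (317), Atxn3, a deubiquitinase gene mutated in a spinocerebellar ataxia (310), and Srpk2, a splicing kinase gene (306). The distance to the nearest wild type hotspot ranged from 14366 bp (Tef) to 163897 bp (Bend5) in these 11 cases.

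Host genes of members at a start were seldom listed with a knockout-only hotspot at their outer 5′ end. Such a hotspot lay within 1 kb of that end in 43 of 415 hosts (10.4%, 7.60 to 13.7). Where hosts overlapped, each was counted, also one that only contained the start of another gene. The share was 24.6% (23.9 to 25.2) over all 16457 coding genes with a strand in the table, 25.6% (22.3 to 29.1) for the hosts of members over 5 kb from a gene end and away from starts, and 34% (32.1 to 35.9) for the hosts of shared gene-body hotspots. At the outer 3′ end the shares were 0.964% to 1.22% in all 4 groups. Listed members were seldom close together, with 1 of 1987 gaps between neighbours under 5 kb. Of the members at a start, 229 (55.3%) were within 5 kb of a gene end, and 13 reached over one. Many of these hosts thus had little room for a second listed hotspot at the outer end. The part of this limit in the 10.4% was not tested. Internal and outer hotspots of the same gene formed 43 pairs in 40 genes, of which 3 genes had 2 internal hotspots beside the same outer one. The internal one had the higher strength in 19 pairs and the outer one in 24, with medians of 84 inside and 89 at the end. The strongest internal hotspots of the pairs were in Specc1 (290, with 65 at the outer end) and Cic, a transcriptional repressor gene (215 and 175). The strongest outer ones were in Tcf7l2 (298, with 89 inside) and Tmpo (261 and 89). Both choices favour the side they were ranked by.

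Strength in the knockout list is given as a description, because the 2 lists chose the members. Members had a median strength of 65 (63 to 67), a range of 18 to 673 and a median of 74 reads. Shared gene-body hotspots had a median of 140 (135 to 144) and a range of 21 to 7346. Background was 11.1% of the 188615 reads in members and 5.24% of the 1054830 reads in shared hotspots. Of the members, 198 (9.87%) exceeded 152, the median of the wild type list. So did 45.8% of shared gene-body hotspots, and 20.4% of knockout-only hotspots at gene ends and 5.07% of those between genes. The 2 lists need not share a scale, since autosomal shared hotspots had a median of 151 in the knockout list and 182 in the wild type list. Members covered 3.3 Mb at a mean strength of 83.6 and held 4.25% of all strength in the knockout list. The shared ones covered 7.93 Mb at a mean of 201 and held 25.3%.

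Members at a start were the stronger ones. Their median was 89.5 (84 to 96), close to the 88 of knockout-only hotspots at gene ends. Members over 500 bp from every listed start had a median of 66.5 (60 to 71) if they were within 5 kb of a gene end (394 hotspots). Those deeper in the gene (1097 hotspots) had 59 (57 to 61), close to the 61 of knockout-only hotspots between genes. Width followed the same order, with medians of 1722 bp at starts, 1562 bp near ends and 1506 bp deeper, against 1566 bp for shared hotspots. The share at a start was 12% among members with a strength under 50, 22.8% from 75 to 100, 36.9% from 100 to 150 51.2% (43.2 to 59.2) from 150 to 300 and 42.3% (23.4 to 63.1) in the 26 members from 300 on. Among shared hotspots it stayed under 1% in every strength class. With only knockout hotspots at or above the median strength of their list, 404 members were left and 43.7% were at a start.

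**Figure D3:**
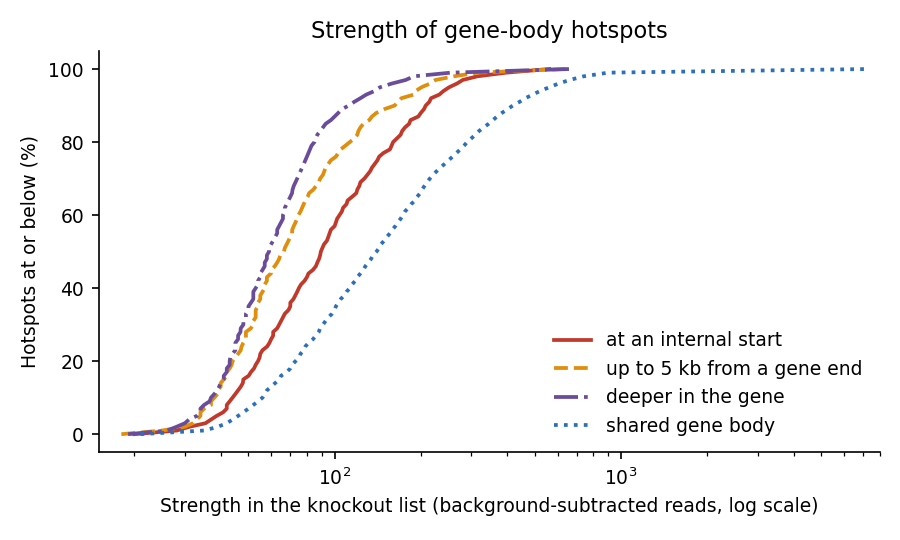
Cumulative percent of hotspots (y axis) by strength in the knockout list in background-subtracted reads (x axis, log scale). The lines are members at an internal start, members up to 5 kb from a gene end, members deeper in the gene and shared gene-body hotspots, with medians of 89.5, 66.5, 59 and 140.

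The other strong members were named by their rank. The strongest of all lay in Cep120, a centriole gene on chromosome 18, at chr18:53743758-53745446 with 700 reads and a strength of 673, rank 746 in the list. Its centre was 1034 bp from the gene end. The second lay in Adam12, a metalloprotease gene, at chr7:134032096-134033694 (strength 665), 10115 bp from the nearest gene end and from the nearest start. Zbtb2, a zinc finger gene (638), and Pnrc1, a nuclear receptor coregulator gene (495), had wide hotspots of 3034 and 3260 bp that reached over the gene end. Mllt10, a cofactor gene of the histone methyltransferase DOT1L, had 2 strong members 8453 bp apart (535 and 488), with centres 909 and 505 bp from a start. Pfkfb3, a glycolysis regulator gene (498), and Celf2, an RNA-binding protein gene (389), followed. Prelid3a (439) and Zfp516 (398) lay on chromosome 18, where starts were not analysed here.

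Among members over 5 kb from a gene end and over 500 bp from every start, Adam12, Pfkfb3, the second Mllt10 hotspot and Celf2 (658 bp from a start) were followed by Usp6nl (388), Cyrib (380), Gria4, a glutamate receptor gene (327), Arid1b, a chromatin remodeller gene (315), Wdr70 (272) and Hivep2 (271). The weakest members were in Fam184a (22), Dnah9 (21), Anks1b (20), Tafa2 (19) and Scml4 (18), all on chromosomes 10 and 11. On these chromosomes the knockout list reached weaker hotspots than on most others (5th percentiles of strength of 30 and 29). The members farthest from a gene end were 3 in Lsamp, a neuronal adhesion gene of 2197 kb, and 1 each in Dcc and Cntn4, at 423447 to 488982 bp and with strengths of 43 to 82.

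At the 1 kb limit of the rule, the members just inside lay in Atxn3 (1001 bp, strength 310), Sec24b (1001 bp, 95) and Lor (1003 bp, 121). The knockout-only hotspots just outside were in Phldb3 (992 bp, 71), Nrip1 (993 bp, 117) and 2900026A02Rik (1000 bp, 103). In all, 33 members (1.65%) reached over a gene end with part of their interval.

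Members crowded towards the 5′ side of genes. From 1 to 2 kb inside the 5′ end of the host there were 11.4 members per Mb (9.68 to 13.4), against 3.44 (2.52 to 4.59) at the same distance inside the 3′ end. Shared hotspots went the other way, with 2.44 (1.67 to 3.44) and 5.46 (4.28 to 6.87). Leaving out ground within 500 bp of a start, the members had 3.68 (2.70 to 4.92) on the 5′ side and 3.30 (2.40 to 4.44) on the 3′ side, so the intervals of the sides then overlapped widely. From 2 to 5 kb the members away from starts were fewer on the 5′ side (1.19, 0.867 to 1.60) than on the 3′ side (2.44, 1.97 to 3).

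**Figure D4:**
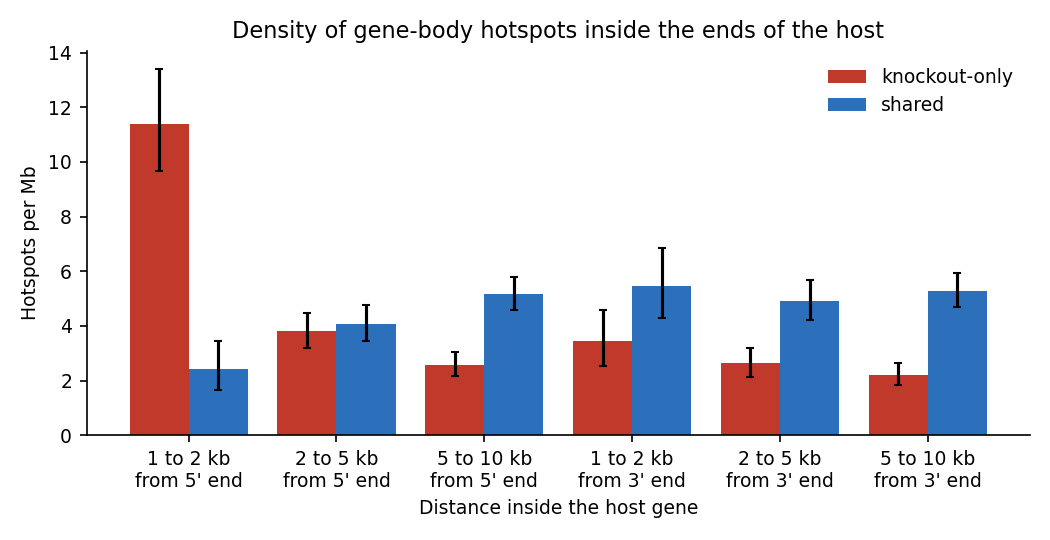
Hotspots per Mb (y axis) at 1 to 2, 2 to 5 and 5 to 10 kb inside the 5′ and 3′ ends of host genes (x axis), for knockout-only and shared gene-body hotspots, with exact 95% Poisson intervals. The knockout-only bar 1 to 2 kb from the 5′ end stands at 11.4 per Mb, and the other knockout-only bars lie between 2.21 and 3.81.

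Host genes with a known strand were cut into 10 equal stretches from the 5′ end. The first stretch held 17.9% of members and the last 10.8%. For members at a start the first held 40.1% (35.3 to 45). Members deeper than 5 kb and away from starts had 7.46% in the first and 9.21% in the last, and shared hotspots had 7.32% and 9.17%. The deeper members stood at 1.53 per Mb (1.44 to 1.62) and shared hotspots at 5.52 (5.35 to 5.69) on the same ground. Counting all members, 32.6% (30.5 to 34.7) were within 5 kb of a gene end, against 17.3% (16.3 to 18.4) of shared hotspots. The median distance to a wild type hotspot was 58.5 kb for members and 53.6 kb from a shared hotspot to the next wild type hotspot beyond its partner. A wild type hotspot was centred within 5 kb of 32 members (1.6%) and within 20 kb of 363 (18.1%). With distance from any gene end, member density fell from 5.87 per Mb at 1 to 2 kb to 1.61 beyond 50 kb, while shared hotspots stood between 4.32 and 5.75.

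The members lay in 1607 host genes, 7.78% of the 20665 autosomal coding genes. Shared gene-body hotspots lay in 3207 (15.5%). Of the member hosts, 692 (43.1%) also held a shared hotspot. Most hosts had a single member (1317 genes), and 290 had more. The hosts that held members alone were shorter (median 44.5 kb, 40.4 to 50) than those that held both (235 kb, 214 to 257), and all coding genes had a median of 17.5 kb. By host length, members had 3.27 per Mb (2.84 to 3.76) in genes under 20 kb, 2.49 from 20 to 50 kb, 2.09 from 50 to 100 kb, 2.18 from 100 to 200 kb, 1.98 from 200 to 500 kb and 1.82 (1.63 to 2.03) above. Shared hotspots were fewest in the shortest genes (3.87, 3.40 to 4.39), most frequent from 100 to 200 kb (6.06, 5.71 to 6.43) and at 4.81 (4.49 to 5.14) over 500 kb. Members at a start fell from 1.27 per Mb in genes under 20 kb to 0.101 in those over 500 kb. The share of genes with such a member rose over the same classes, from 0.712% (0.564 to 0.887) to 7.87% (4.65 to 12.3). Whether single starts were used more or less in long genes was not tested.

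Genes with the most members were long. Anks1b, a synaptic scaffold gene of 1100 kb, had 9 members with strengths of 20 to 132, beside 8 shared hotspots. Next came Trpm3, an ion channel gene (7 members, 53 to 192), and Ptprd, a receptor phosphatase gene (7, 65 to 134). Nhsl1 (7, 31 to 104) and Grip1, a glutamate receptor scaffold gene (7, 31 to 143), had 0 and 1 shared hotspots. Ppm1h, a phosphatase gene (6 members), Macrod2 (6), Lrp1b (6), Robo1, an axon guidance receptor gene (5), and Nrg1, a growth factor gene (5), completed the list. Of these 10 genes, 4 lay on chromosome 10 (Anks1b, Nhsl1, Grip1 and Ppm1h). On that chromosome the knockout list reached weaker hotspots, with a 5th percentile of strength of 30 against 44 to 48 on most others. The median strength of the members was 52 in Anks1b and 42 in Grip1, so counts on chromosome 10 are not on equal terms with the others. By summed strength Mllt10 (1023), Adam12 (771) and Trpm3 (749) led.

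Lists of genes were counted beside the 7.78% of all coding genes with a member. The list for recombination and synapsis in meiosis had 2 hosts among 48 autosomal genes (4.17%, 0.509 to 14.3). They were Stra8, a gene of meiotic entry (85), and Spata22, whose product works with MEIOB on single-stranded DNA (34, with its centre 238 bp from a start). Of 42 ubiquitously expressed genes, 5 (11.9%, 3.98 to 25.6) had one, namely Actb (197), Ywhaz (149), Npm1 (141), Srsf1 (95) and Gapdh (76). These genes were 4.62 to 32.7 kb long, and the member lay 1128 to 3897 bp from a gene end. For Actb, Ywhaz and Npm1 the nearest listed start was 10751, 117351 and 15614 bp away. No start of Actb, Ywhaz or Npm1 itself was thus scored. Per Mb of gene body the list had 9.44 members, from 5 hotspots in 0.53 Mb. All coding genes had 2.17 per Mb, and those under 20 kb had 3.27 (2.84 to 3.76). The median length in the list was 8.04 kb.

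Among 57 chromatin modifier and remodeller genes, 14 (24.6%, 14.1 to 37.8) had a member and 19 (33.3%) a shared hotspot. Their median length was 78 kb, and of all coding genes of 50 to 100 kb 12.8% (11.5 to 14.2) had a member. The list also held longer genes, such as Arid1b (353 kb) and Hdac9 (870 kb), and of all coding genes of 100 to 200 kb 23.2% had a member. The list had 2.77 members and 6.93 shared hotspots per Mb, against 2.17 and 5.38 over all coding genes. Its members were only 16 in 5.77 Mb, and no interval was computed for its densities. The strongest were in Arid1b (315), Dnmt3a, a DNA methyltransferase gene (270), Kdm4c (240) and Kdm2a (232), which encode histone demethylases, and Chd9 (175). The Dnmt3a and Kdm4c members were 168 and 51 bp from an internal start. In Dnmt3a an internal promoter is known to give a short protein of germ cells and embryos.

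Of 45 genes with well-known internal promoters, 23 (51.1%, 35.8 to 66.3) had a member, and 3 had it at an annotated start. Those 3 were Tcf7l2 (89), Lef1 (78), both Wnt pathway transcription factor genes, and Ank2 (61). Over all 20665 coding genes, 417 had a member at a start. The list had a median length of 192 kb. Of all coding genes of 100 to 200 kb, 23.2% had a member and 5.26% had one at a start. From 200 to 500 kb the shares were 40.7% and 5.49%. Tcf4 lay on chromosome 18, where starts were not analysed. The strongest members of the list were in Prkg1 (174), Mapt, the tau gene (166), Ldb3 (148), Pde4d (143) and Pde4b (134). In Ace, whose testis form is made from an internal promoter in spermatids, the member (97) lay 2026 bp from a gene end. Its centre was 2244 bp from the nearest listed start, and its place relative to the testis promoter was not tested. The list had 2.75 members per Mb, against 2.17 over all coding genes, and 4.54 shared hotspots per Mb against 5.38.

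Long neuronal adhesion and synapse genes had a member in 35 of 50 (70%, 55.4 to 82.1) and a shared hotspot in 49 of 50. Per Mb they had fewer than all genes, 1.52 members and 4.32 shared hotspots. Magi2 (213), Robo1 (205), Robo2 (162), Ptprd (134) and Wwox (90) held the strongest, and 2 genes had a member at a start. The list had a median length of 1140 kb. Of all coding genes over 500 kb, 69.9% had a member, 94.9% a shared hotspot and 7.87% a member at a start. Those genes had 1.82 members (1.63 to 2.03) and 4.81 shared hotspots (4.49 to 5.14) per Mb. No interval was computed for the densities of the list. Of 35 spermatid genes, 3 (8.57%) had a member. In Meig1, needed for the spermatid manchette (192), and Zpbp, an acrosome gene (172), it was at an internal start, 56 and 353 bp away, and in Spag16 (59) it was not. Markers of somatic testis cells (Sertoli and Leydig) had a member in 4 of 26 autosomal genes (15.4%, 4.36 to 34.9). These were Cldn11 (101), Nr2f2 (88), Sox9 (64) and Gja1 (58), and none of the members was at a listed start. For Sox9, a gene of 5.55 kb, the nearest listed start was 13859 bp away, so no start of Sox9 itself was scored. By share of genes, the intervals of the meiotic, ubiquitous, spermatid and somatic lists included the 7.78% of all genes. Per Mb the meiotic list had 0.81 members, the spermatid list 1.6 and the somatic list 4.86, each from 4 hotspots or fewer.

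Across autosomes, members were 28.7% of the 6986 gene-body hotspots of the knockout list, and 47.4% of all autosomal knockout hotspots were knockout-only. The rule used this contrast, so the shares are descriptions. The share was highest on chromosome 10 (206 members, 40.3%, 36.0 to 44.7) and on chromosomes 18 (37.1%) and 19 (36.8%). It was lowest on chromosomes 13 (50 members, 17.1%, 13.0 to 21.9) and 14 (18.6%). The strength reached by the lists differed between chromosomes. In the knockout list the 5th percentile of strength was 29 to 35 on chromosomes 1, 10, 11 and 12 and 44 to 48 on the others. In the wild type list it was 34 to 37 on chromosomes 1 and 10 to 15 and 49 to 57 on the others. On chromosomes 13, 14 and 15, then, the wild type list reached weaker hotspots and the knockout list did not.

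With only knockout hotspots of strength 50 or more, chromosome 10 had 29.7% and chromosome 11 fell from 32.9% to 20.2%, while chromosomes 18 and 19 had 34.4% and 35.4%. Chromosomes 13 and 14 then had 15.8% and 15.3%. The part of the uneven lower limit of the lists in these shares was not tested further. The share of members at a start was 12.8% to 31.9% on single chromosomes, so on each it was above the 0.374% of shared hotspots. Without chromosomes 1 and 10 to 15 it was 22.1%, and with a strength of at least 50 it was 25.6%.

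**Figure D5:**
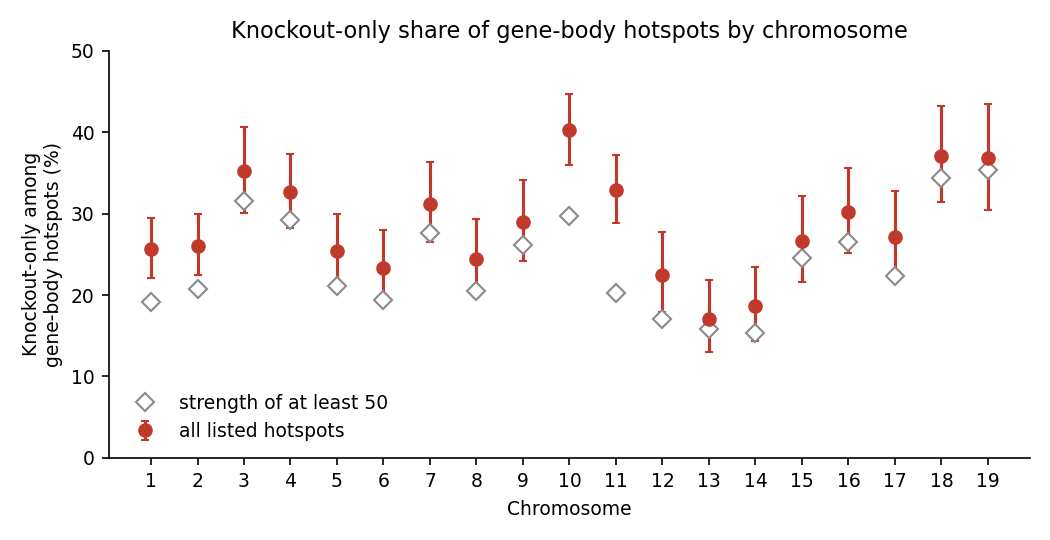
Knockout-only hotspots as a percent of all gene-body hotspots of the knockout list (y axis) by chromosome (x axis). Circles with exact 95% intervals count all listed hotspots, and diamonds count those with a strength of at least 50. Chromosome 10 stands highest among the circles at 40.3%, and chromosomes 18 and 19 stand highest among the diamonds.

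Shared gene-body hotspots were more often lower than higher in the knockout. On strength relative to the median autosomal shared hotspot of each list, 25% stood more than 2-fold lower in the knockout and 7.25% more than 2-fold higher, beside 15.9% and 12.4% of all autosomal shared hotspots. The 18 at an internal start had a median log2 ratio of knockout over wild type of -0.13 (range -2.0 to 1.79), against -0.30 for all 4980. Of these 18, 4 stood more than 2-fold higher in the knockout and 6 as much lower. The strongest shared hotspot, in Enpp6, a phosphodiesterase gene, had 7346 in the knockout and 405 in the wild type. The next were in Chl1 (2199 and 2541), Cadm2 (2016 and 3024), Hdac9 (1907 and 3885) and Dusp26 (1719 and 1048). The strongest member, in Cep120, was weaker than all of these by more than 2-fold.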

How the data were processed

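DMC1-SSDS was done on testis of 2 wild type and 2 Ankrd31 knockout mice. Per the submitters' processing notes, the tools were CASAVA, Bowtie2, BWA and MACS2 and the build mm10 (no versions or roles stated). No source used here says whether animals were pooled. The deposited read count per hotspot is a whole number. The authors also deposited an estimated background, and the deposited strength is a signal equal to count minus background. The deposited percent strength and the rank, a score, are relative to each list. No source used here gives library depth, and read counts without molecular identifiers are not independent molecules, so intervals cover counting error only.

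Hotspots were placed by their centre with RefSeq genes and transcript starts of GRCm38.p6 (the assembly that mm10 names), in Python 3.11.15 with numpy 2.4.6, pandas 2.3.3 and scipy 1.17.1. Of 1607 host genes, 1254 (78%) had an entry in the promoter table, which also gave strand. Shares carry exact Clopper-Pearson intervals, densities exact Poisson intervals and medians exact order-statistic intervals. The placement was tested on simulated hotspots of known class. Members and lists were chosen with earlier results of these data known. The named hotspots were the 15 strongest members, the 5 weakest, the 5 farthest from a gene end, those at the 1 kb limit, the 10 hosts with most members and with the highest summed strength, up to 5 genes per list and the 5 strongest shared hotspots. Members at starts, those deep in genes and pairs with an outer start were named by strength after the values were seen. Promoter sequences are from RefSeq. H3K4me3 and input samples were not analysed here.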

Additional observations from a re-analysis of the deposited data

How the results depend on the processing

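No paired analysis was possible because each genotype has 1 list with no values per animal, and for the same reason no replicate could be left out. Under each of 16 other settings, members were more often at a start than shared hotspots. Under the 14 that recomputed them, members were weaker and, except where centres within 5 kb were left out, more often near a gene end. Of 228 recomputed values, 143 stayed within counting error of the reported ones (or within 1.5 times for counts) and 85 did not.

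With the distance from gene ends set to 500 bp, 2 kb and 5 kb, members within 5 kb of an end were 43.1%, 20.5% and 0%, density was 2.5, 1.96 and 1.81 per Mb, genes with a member 9.45%, 6.53% and 5.13%, host length 104, 144 and 182 kb, and members at a start 25.9%, 18.4% and 14.4%. The median strength at 5 kb was 62. For shared hotspots the shares within 5 kb were 19.8%, 13.4% and 0%, genes 16%, 14.8% and 12.6%, and host length at 5 kb 177 kb. With ends of coding genes only, the members had 27.6% within 5 kb, 2.33 per Mb, 8.53% of genes and 25.1% at a start, and the shared ones 11.2% within 5 kb. With the whole interval clear of ends, the members had 21.8%, 1.88, 6.63%, a host length of 143 kb and 18.7% at a start, and the shared ones 14.4%, 5.22 and 14.9%.

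At or above the knockout list median, 404 members were left (median 150, 49% within 5 kb, 0.438 per Mb, 1.9% of genes, host length 92.1 kb, 53.1 kb to a wild type hotspot, 43.7% at a start) and 3156 shared hotspots (207, 3.42 per Mb, 10.9%, 162 kb and 56.1 kb). With the list reduced to the size of the wild type list, 623 members were left (122, 45.4%, 0.676, 2.86%, 95.7 kb, 54 kb and 39.3%), and the shared ones had 186, 3.98, 12.3% and 161 kb. From a strength of 50 on, a limit chosen after seeing the data, members had 78, 34.9%, 1.57, 5.89% and 25.6% at a start, and shared hotspots 149, 5.05 and 14.7%.

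Without chromosomes 13, 14 and 15 the member density was 2.28 and without chromosome 10 it was 2.06. Without chromosomes 1 and 10 to 15 there were 1239 members (median 69, 7.34% of genes, 64.8 kb to a wild type hotspot) and 2987 shared hotspots (146, 5.09 per Mb, 14.4%, 58.1 kb). Both chromosome settings without 10 were chosen after seeing the data. Without genes of predicted or clone-based names, 8.17% of genes had a member and 16.2% a shared hotspot. Windows of 250 bp and 1 kb around starts, also chosen after seeing the data, gave 17.6% and 24% of members. Members were in shorter hosts than shared hotspots, except at a 5 kb distance (182 kb, 166 to 199, against 177 kb, 169 to 186). They were nearer to a wild type hotspot than shared ones under the 2 strictest strength limits only. The distances were 53.1 kb (42.6 to 59) against 56.1 kb (53.5 to 58.9), and 54 kb (46.8 to 59.3) against 55.6 kb (53.1 to 58.4). In these exceptions the intervals overlapped. For host length they also overlapped at 2 kb and with the whole interval clear of ends. Hotspots below the lower limit of a list cannot be seen, and this limit differed between chromosomes and lists.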
